A study of Mus musculus with 2 samples.

Results

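The peroxisome proliferator-activated receptor Pparg, its partner Rxra and 8 genes of lipid uptake, oxidation, storage and efflux (Cd36, Cpt1a, Acadl, Acadm, Nr1h3, Abca1, Abcg1 and Plin2) were followed through the cells of irradiated mouse medulloblastoma. These 10 genes were taken by symbol from the 31055 features listed, and raw UMIs (unique molecular identifiers, each standing for 1 captured transcript) were counted in barcodes that had 500 or more detected genes and no more than 10% mitochondrial UMIs. The tumours arose in Math1-Cre;SmoM2fl/fl mice, in which Cre driven by the Math1 promoter switches on SmoM2, an activated Smoothened, in granule neurons and their precursors. Both groups carry these alleles and both were irradiated with protons: 1 library came from tumour tissue after standard irradiation and 1 after FLASH irradiation, in which the dose rate is very high. The dose is on record as 5 Gy in the sample labels but as 10 Gy in the series design, and the files do not settle which was used. No unirradiated sample was analysed here, and the sources used here do not give the age of the mice, their number per library or the time after irradiation. With 1 library per group no test between treatments was possible, so every comparison is a description of these samples, and the 95% intervals hold counting error alone.

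PPAR gamma is a nuclear receptor that binds fatty acids and their derivatives and acts on DNA as a pair with an RXR. In macrophages it is known for raising the scavenger receptor and fatty acid transporter CD36, and through LXR alpha (Nr1h3) for its link to the cholesterol exporters ABCA1 and ABCG1. Fatty acids taken up are stored in droplets coated by perilipin 2 (Plin2) or enter mitochondria through CPT1A and are oxidised by acyl-CoA dehydrogenases such as those for long chains (Acadl) and medium chains (Acadm). Isoforms of these genes cannot be told apart in these 3′-end counts.

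The elements by which such receptors bind DNA were searched for in the 250 bases before each RefSeq start site (build GRCm38.p6), on both strands. RefSeq promoters were matched for 9 of the 10 genes, with 13 start sites in all. The single hexamer AGGTCA was found in 7 of these 13 promoters and in 14.0% of all 32851 promoters searched. The direct repeat of hexamers spaced by 1 base that PPAR and RXR share, searched as GGNCA, any base and AGGNCA, was found in 0.694% of promoters, and among these genes only in 1 promoter of Rxra, at positions -74 to -63 from the start site. The repeat spaced by 4 bases that LXR and RXR share, searched as GGTNA, any 5 bases and GGTCA, was found in 0.177% of promoters, and among these genes only in Abca1, at -67 to -53. Its letters were written to admit the element known in Abca1, so that match was built in. The promoters of Abca1, of Cd36 and Plin2 (each with 1 hexamer) and of the Rxra start site with the repeat are shown because these genes carry the results below, with matches in capitals and each written 5′ to 3′ on the gene's strand. They lie at chr4:53159896-53160145 (minus strand), chr5:17835897-17836146 (minus), chr4:86670060-86670309 (minus) and chr2:27709042-27709291 (plus). In Rxra the capitals mark a reversed hexamer, the repeat and a further hexamer, which do not overlap. A match describes letters only, and binding was not measured.
Abca1: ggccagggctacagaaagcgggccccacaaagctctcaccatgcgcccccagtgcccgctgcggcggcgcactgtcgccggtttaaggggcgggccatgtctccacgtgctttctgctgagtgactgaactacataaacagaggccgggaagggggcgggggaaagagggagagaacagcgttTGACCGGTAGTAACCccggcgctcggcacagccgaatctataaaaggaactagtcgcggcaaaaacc
Cd36: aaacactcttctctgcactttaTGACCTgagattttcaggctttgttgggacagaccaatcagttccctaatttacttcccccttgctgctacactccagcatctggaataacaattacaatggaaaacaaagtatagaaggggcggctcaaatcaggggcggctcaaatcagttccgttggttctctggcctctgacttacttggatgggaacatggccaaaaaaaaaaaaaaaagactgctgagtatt
Plin2: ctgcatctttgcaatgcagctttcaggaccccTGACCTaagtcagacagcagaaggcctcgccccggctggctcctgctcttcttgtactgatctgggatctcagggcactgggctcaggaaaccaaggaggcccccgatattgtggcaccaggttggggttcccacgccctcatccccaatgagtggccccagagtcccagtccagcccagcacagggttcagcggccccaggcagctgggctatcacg
Rxra: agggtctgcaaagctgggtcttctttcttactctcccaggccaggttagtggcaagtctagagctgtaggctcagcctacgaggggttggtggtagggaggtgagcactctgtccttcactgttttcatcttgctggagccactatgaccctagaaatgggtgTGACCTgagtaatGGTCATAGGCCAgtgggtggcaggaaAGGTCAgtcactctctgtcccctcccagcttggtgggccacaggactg

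The standard library kept 8461 of 12867 barcodes (median 5700 UMIs) and the FLASH library 10366 of 14269 (median 5329.5 UMIs), with 22 barcode sequences found in both. Cells were clustered without the 10 genes or the other pathway genes named below, and clusters were named "-like" from marker lists because no annotation of cells is among the files. Tumour-lineage cells, that is the progenitor-like and differentiating-like clusters of granule neurons, numbered 6461 (standard) and 8076 (FLASH). All 8 progenitor markers were detected in them, at a summed 2604 and 2754 counts per 1000000 UMIs (CPM). Myeloid cells had all 8 as well, at 430 CPM and 447 CPM. Myeloid cells numbered 351 and 374, with all 9 macrophage markers and all 7 microglia markers detected. The macrophage and microglia markers summed to 23154 and 3508 CPM after standard and 23175 and 2909 CPM after FLASH. They fell into a macrophage-like cluster led by Lyz2, Cd74 and Apoe (173 and 220 cells) and a microglia-like cluster with Spp1, C1qc and C1qa among its leading genes (178 and 154 cells). The clusters were thus nearly equal in cell number after standard irradiation, and the macrophage-like cluster was the larger after FLASH. Endothelial-like cells were few, 36 and 56. The adipocyte markers Adipoq, Plin1, Lep and Cidec were all at 0 in myeloid and endothelial-like cells. The C1q genes, which tumour cells should lack, stood in tumour-lineage cells at 0.0829% and 0.0843% of their myeloid level. Free RNA and doublets were not told apart in these counts.

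In both libraries 9 of the 10 genes were at least 2-fold higher in myeloid than in tumour-lineage cells, with intervals that excluded 0 on the log2 scale. The exception was Acadm. Across all 13769 genes measured the same rule called 14.9% higher and 28.2% lower in myeloid cells. The median log2 ratio was 4.09 (standard) and 4.21 (FLASH) over the 10 genes and -0.66 in both libraries over all genes. The genes spread widely within that median, from Cd36, almost wholly myeloid, to Acadl and Acadm, which were measured in every large class.

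**Figure D1:**
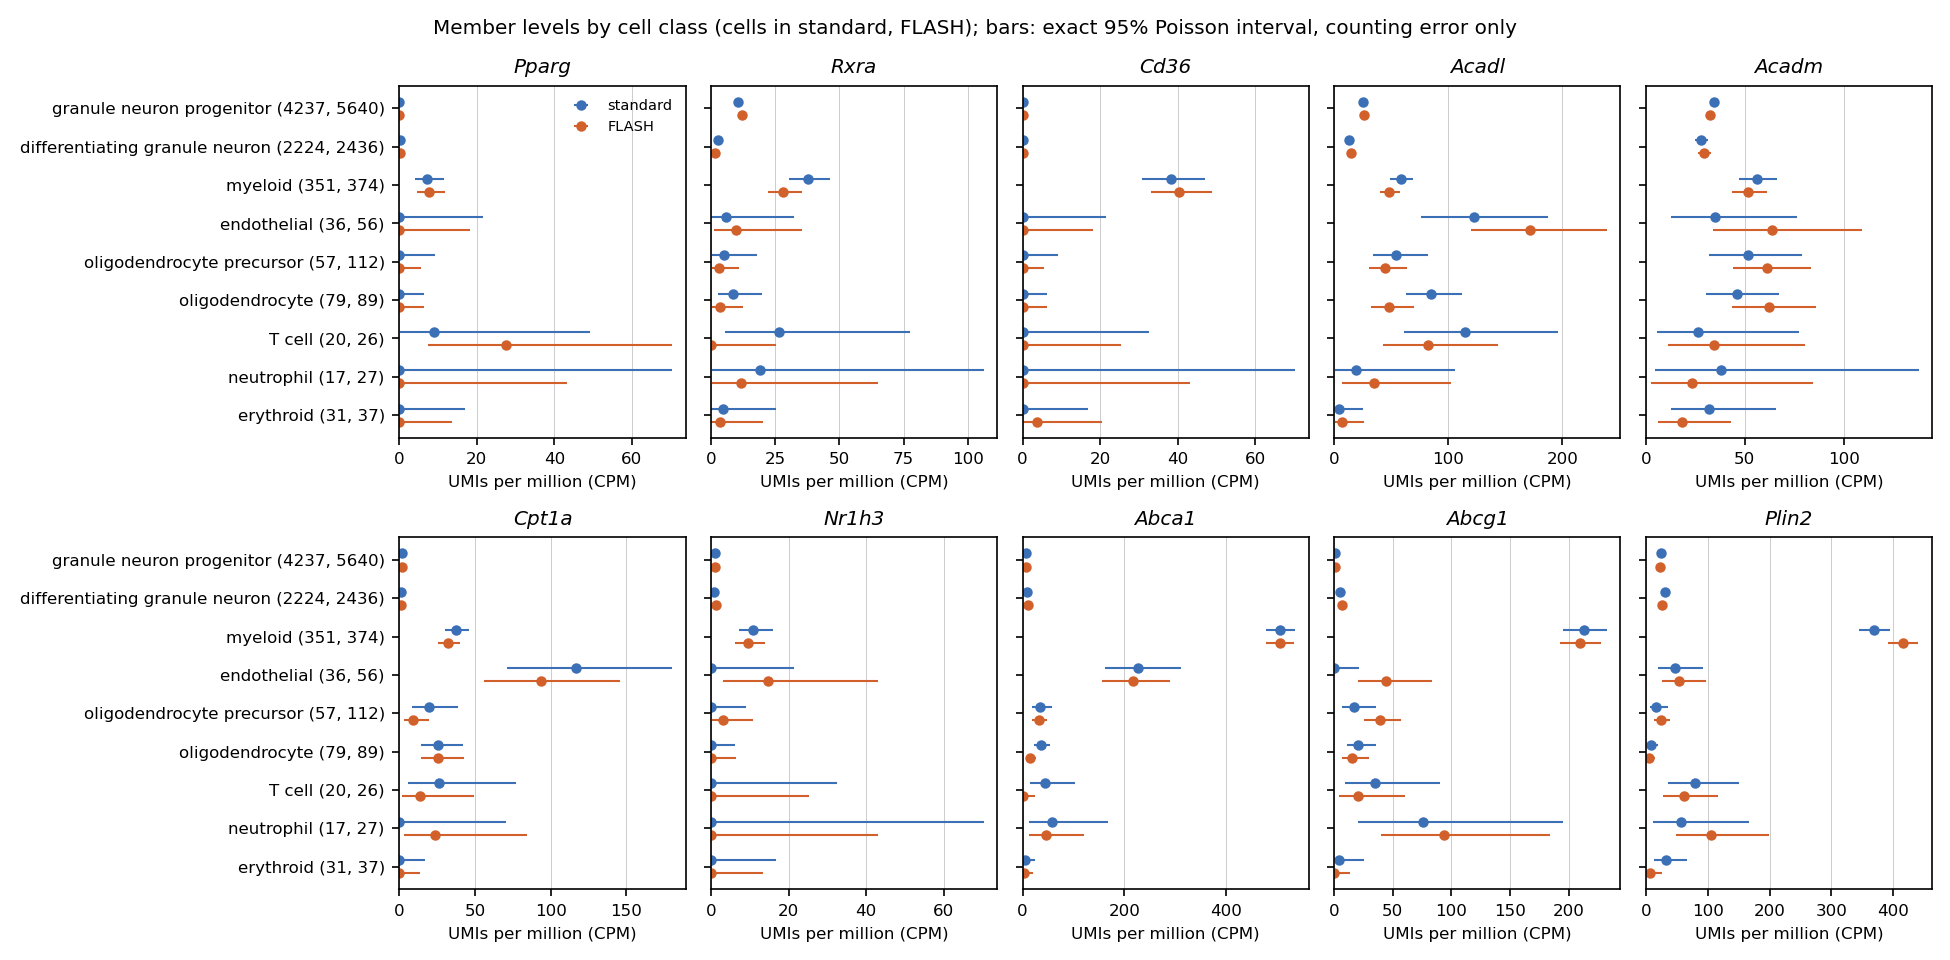
Level of each of the 10 genes (CPM) in cell classes of the standard and FLASH libraries, with exact Poisson 95% intervals. Myeloid cells stand above the progenitor-like and the differentiating-like tumour cells for all 10 genes in both libraries, by the smallest ratio for Acadm. Endothelial-like cells lie above myeloid cells for Acadl and Cpt1a in both.

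Pparg (ENSMUSG00000000440, chr6:115360951-115490399, mm10) was rare. It gave 17 UMIs in 16 of 351 myeloid cells after standard irradiation, 7.15 CPM (4.16 to 11.4), and 20 UMIs in 17 of 374 cells after FLASH, 7.62 CPM (4.66 to 11.8). Tumour-lineage cells gave 3 UMIs and 2 UMIs, 0.0687 CPM and 0.0393 CPM. The log2 ratio of myeloid over tumour-lineage cells was 6.52 (4.91 to 9.12) and 7.31 (5.56 to 10.74). Of all Pparg UMIs in kept cells, 81.0% of 21 and 76.9% of 26 were in myeloid cells, and T cell-like cells held 1 UMI and 4 UMIs. That was 8.82 CPM (0.223 to 49.1) and 27.5 CPM (7.49 to 70.3), with intervals that overlap those of myeloid cells. No Pparg UMI was found in endothelial-like cells, where 3 counts would be 17.5 CPM and 14.7 CPM, so a level like that of myeloid cells could not be detected there.

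Rxra (ENSMUSG00000015846, chr2:27676440-27762957), a partner that PPAR and LXR share, was more widely spread. Myeloid cells had 37.8 CPM (30.4 to 46.5) and 28.2 CPM (22.1 to 35.4), against 8.42 CPM and 9.63 CPM in tumour-lineage cells. The log2 ratios were 2.17 (1.82 to 2.50) and 1.56 (1.18 to 1.91). Only 18.0% and 12.5% of all Rxra UMIs were myeloid, and most of the others were in the far more numerous tumour-lineage cells. Endothelial-like cells had 1 UMI and 2 UMIs. Another RXR gene, Rxrb, had 28.6 CPM and 29.3 CPM in myeloid and 28.3 CPM and 30.6 CPM in tumour-lineage cells.

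Nr1h3 (ENSMUSG00000002108, chr2:91184061-91202834), which encodes the oxysterol receptor LXR alpha, gave 26 and 25 myeloid UMIs, 10.9 CPM (7.14 to 16.0) and 9.53 CPM (6.17 to 14.1). Tumour-lineage cells had 1.05 CPM and 1.14 CPM, a log2 ratio of 3.39 (2.62 to 4.10) and 3.08 (2.33 to 3.76). Its myeloid UMIs were concentrated: the 5 cells with most held 46.2% and 48.0% of them. The other LXR gene, Nr1h2, had 37.8 CPM and 32.0 CPM in myeloid and 33.5 CPM and 31.4 CPM in tumour-lineage cells.

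Cd36 (ENSMUSG00000002944, chr5:17781690-17888801), the fatty acid and oxidised-lipid receptor, was the most myeloid of the 10 genes by this measure. Of its 94 and 108 UMIs in kept cells, 96.8% and 98.1% were in myeloid cells. The myeloid level was 38.3 CPM (30.8 to 47.0) and 40.4 CPM (33.1 to 48.9), while tumour-lineage cells gave 2 UMIs and 1 UMI. The log2 ratios were 9.39 (7.81 to 12.78) and 10.43 (8.50 to 16.32). A Cd36 UMI was found in 11.1% and 12.3% of myeloid cells (median 6509 and 6119.5 UMIs per cell) and in 0.0310% and 0.0124% of tumour-lineage cells (median 6411 and 5847 UMIs). After thinning every cell to 2000 UMIs, which left out 64 and 58 myeloid cells, the myeloid shares were 5.23% and 7.59%. The transcript was uneven among myeloid cells, since the 5 cells with most UMIs held 31.9% and 37.7% of them.

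The efflux pumps gave the firmest contrast. Abca1 (ENSMUSG00000015243, chr4:53030787-53159895), which passes cholesterol to lipid-poor apolipoproteins, had 1203 and 1327 myeloid UMIs, 506 CPM (478 to 535) and 506 CPM (479 to 534). Tumour-lineage cells had 7.57 CPM and 6.82 CPM, so the log2 ratio was 6.06 (5.89 to 6.24) and 6.21 (6.04 to 6.39). An Abca1 UMI was present in 63.5% and 67.4% of myeloid cells against 4.57% and 3.83% of tumour-lineage cells. At 2000 UMIs per cell these shares were 46.7% and 50.3% against 1.62% and 1.42%. Abcg1 (ENSMUSG00000024030, chr17:31057675-31117988), which loads cholesterol onto HDL particles, had 213 CPM (195 to 233) and 210 CPM (192 to 228) in myeloid cells and 2.04 CPM and 2.30 CPM in tumour-lineage cells. Its log2 ratios were 6.70 (6.38 to 7.05) and 6.51 (6.22 to 6.81). Both pumps differed between classes by far more than the counting error in each library.

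Plin2 (ENSMUSG00000028494, chr4:86648386-86670060), a coat protein of lipid droplets, had 369 CPM (345 to 394) and 415 CPM (391 to 440) in myeloid cells. Tumour-lineage cells had 26.3 CPM and 24.5 CPM, a log2 ratio of 3.81 (3.68 to 3.94) and 4.08 (3.96 to 4.20). Of all Plin2 UMIs, 41.1% and 44.3% were myeloid. Tumour-lineage cells with no C1q UMI and no top doublet score had 26.9 CPM and 24.6 CPM of Plin2. Their Abca1 was 7.88 CPM and 6.75 CPM, and both genes were close to their levels in all tumour-lineage cells. The part of free RNA or doublets in the Plin2 and Abca1 levels of tumour-lineage cells was not tested.

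The oxidation genes split. Cpt1a (ENSMUSG00000024900, chr19:3322334-3385733), the gate for long-chain fatty acids into mitochondria, had 37.4 CPM (30.1 to 46.0) and 32.4 CPM (25.9 to 40.1) in myeloid cells and 1.81 CPM and 1.59 CPM in tumour-lineage cells. Its log2 ratios were 4.37 (3.92 to 4.83) and 4.35 (3.89 to 4.80). Acadl (ENSMUSG00000026003, chr1:66830839-66863277) differed much less, with 58.4 CPM and 48.4 CPM in myeloid against 22.2 CPM and 23.9 CPM in tumour-lineage cells, log2 ratios of 1.40 (1.13 to 1.66) and 1.02 (0.74 to 1.28). Without the 5 cells of most Acadl UMIs in each library the FLASH ratio was 0.84, and at 2000 UMIs per cell 0.80, so Acadl was no longer 2-fold higher in both libraries. Acadm (ENSMUSG00000062908, chr3:153922357-153944632) had 55.9 CPM and 51.8 CPM against 32.8 CPM and 31.6 CPM, log2 ratios of 0.78 (0.50 to 1.03) and 0.72 (0.45 to 0.97). Cpt1a thus set myeloid apart from tumour-lineage cells further than Acadl and Acadm did. Other genes of these steps did not divide in the same way. For entry, the carnitine-acylcarnitine carrier Slc25a20 had 0.57 and 1.21. The short-chain dehydrogenase Acads had 1.60 and 1.66.

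**Figure D2:**
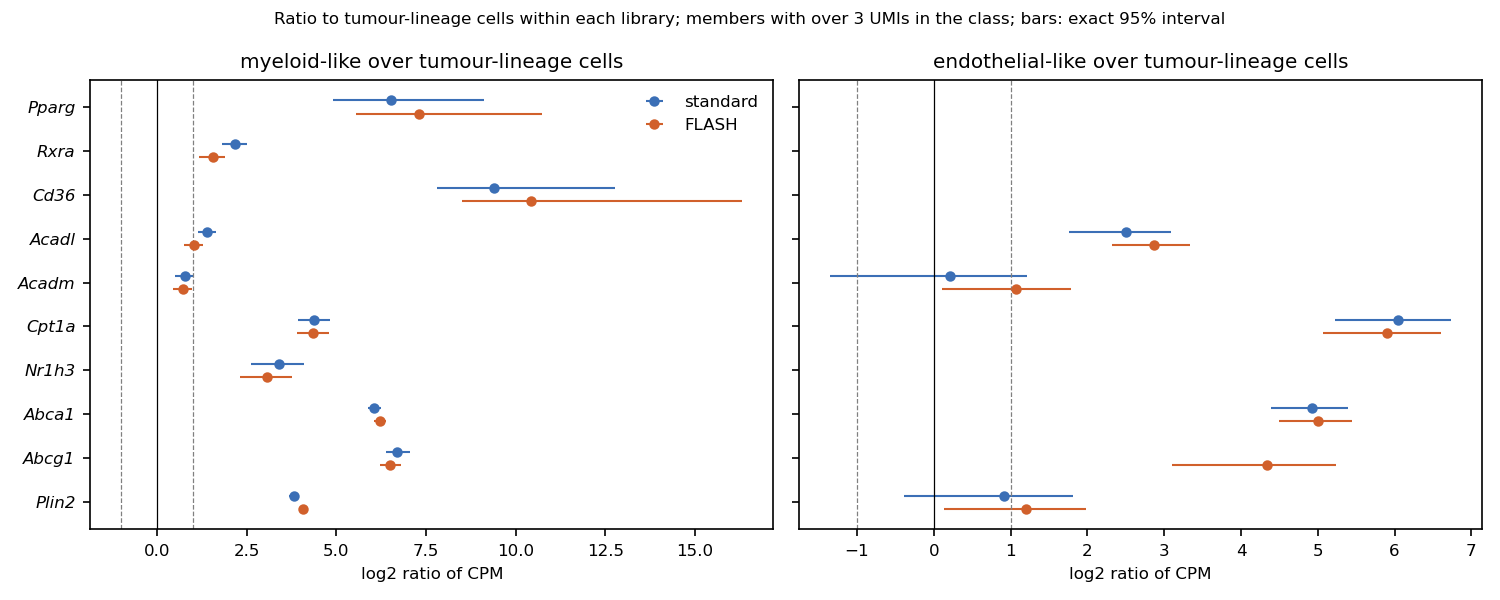
Log2 ratio of myeloid and of endothelial-like cells over tumour-lineage cells for genes with more than 3 UMIs in the class, standard and FLASH, with exact conditional 95% intervals; dashed lines mark 2-fold. In myeloid cells the ratios run from Acadm at 0.78 and 0.72 to Cd36 at 9.39 and 10.43, and in endothelial-like cells Cpt1a lies highest at 6.04 and 5.90.

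Within the myeloid class most UMIs of Pparg, Nr1h3 and Cd36 were in the macrophage-like cluster. That cluster also held the monocyte and dendritic cell transcripts of the class: 92 of 92 and 125 of 128 Ly6c2 UMIs, 234 of 236 and 405 of 410 Ccr2 UMIs, and all 46 and 26 Cd209a UMIs. Pparg had 11.9 CPM and 11.4 CPM there and 0 UMIs in the 178 and 154 cells of the microglia-like cluster, where 3 counts would be 3.16 CPM and 3.46 CPM. Nr1h3 had 18.2 CPM and 13.7 CPM against 0 UMIs and 1 UMI. Cd36 had 60.2 CPM and 58.1 CPM against 5.26 CPM and 4.61 CPM. The efflux and droplet genes were shared between the clusters: Abca1 had 512 CPM and 530 CPM in the macrophage-like and 497 CPM and 457 CPM in the microglia-like cluster. Abcg1 had 218 CPM and 226 CPM against 206 CPM and 176 CPM. Plin2 was higher in the macrophage-like cluster in both libraries, at 425 CPM and 488 CPM against 284 CPM and 268 CPM. The median depth was 7635 and 7233 UMIs per cell in the macrophage-like cluster and 3521.5 and 4445 in the microglia-like cluster. With every cell thinned to 2000 UMIs, a Cd36 UMI was found in 8.09% and 10.6% of macrophage-like cells (173 and 216 cells) and in 0.877% and 1% of microglia-like cells (114 and 100 cells). For Plin2 the thinned shares were 50.3% and 47.2% against 37.7% and 40.0%, with overlapping intervals. Thinning can only remove UMIs, so it adds nothing to the Pparg count of 0 in microglia-like cells.

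Myeloid cells were also divided by UMIs of marker genes. C1q positive cells (at least 3 UMIs of C1qa, C1qb and C1qc) were split into P2ry12 positive (109 and 87 cells), Mrc1 positive (45 and 40), positive for both (41 and 39) and C1q only (106 and 136). Cells under that C1q limit were Ly6c2 positive (9 and 24) or other myeloid (41 and 48). P2ry12 marks microglia, Mrc1 the macrophages of brain borders, and Ly6c2 monocytes. A cell positive for both genes needs enough reads to show them, and the median depth of that subset was 9630 and 10377 UMIs. Each subset was set against all other myeloid cells, and a gene is named where the interval excluded 0 in the same direction in both libraries.

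Abca1 was higher in every C1q positive subset than in the C1q-low subsets, in both libraries. It stood at 607 CPM and 567 CPM in P2ry12 positive, 569 CPM and 545 CPM in Mrc1 positive, and 668 CPM and 827 CPM in cells with both markers. C1q only cells had 399 CPM and 407 CPM. Among C1q positive subsets Abca1 did not always rank with C1q. After FLASH, C1q only cells had more C1qa than Mrc1 positive cells (4750 CPM against 3927 CPM) but less Abca1. After standard irradiation they had less of both genes (C1qa 3604 CPM against 4269 CPM). Ly6c2 positive cells had 46.7 CPM and 108 CPM and other myeloid cells 73.5 CPM and 105 CPM, so neither C1q-low subset overlapped the C1q positive subsets. Against the other myeloid cells the log2 ratios were -3.25 and -2.23 in Ly6c2 positive and -2.83 and -2.33 in other myeloid cells.

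Cd36 was distributed differently. It was lowest in P2ry12 positive cells after standard irradiation (7.79 CPM) and in C1q only cells after FLASH (16.9 CPM), and highest in other myeloid cells in both libraries (136 CPM and 84.7 CPM). Mrc1 positive cells had 39.1 CPM and 69.9 CPM, cells with both markers 73.5 CPM and 55.3 CPM, and Ly6c2 positive cells 46.7 CPM and 66.5 CPM on 3 and 8 UMIs. The log2 ratio over the rest was -2.66 and -0.87 in P2ry12 positive, -0.97 and -1.52 in C1q only and 2.17 and 1.24 in other myeloid cells. Other myeloid cells also carried H2-Ab1, a class II antigen-presentation gene, at 4018 CPM and 2506 CPM, the monocyte receptor Ccr2 at 435 CPM and 588 CPM, and the dendritic cell markers at a summed 396 CPM and 179 CPM. The part of these cell types in the Cd36 level was not tested.

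Plin2 was highest in cells with both markers (482 CPM and 526 CPM) and in C1q only cells (414 CPM and 543 CPM). P2ry12 positive cells had 323 CPM and 349 CPM, Mrc1 positive cells 322 CPM and 319 CPM, and Ly6c2 positive cells 171 CPM and 241 CPM. Abcg1 stood between 159 and 281 CPM in the C1q positive subsets and at 141 CPM and 74.7 CPM in other myeloid cells. Its level in Ly6c2 positive cells was 46.7 CPM on 3 UMIs after standard and 191 CPM on 23 UMIs after FLASH, so no single level can be given for that subset.

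Counted over subsets, P2ry12 positive cells had 1 of the 10 genes higher than the other myeloid cells (Abca1) and 2 lower (Cd36 and Plin2), where 4.8% and 6.11% of all 8269 genes passed the same rule. Cells positive for both markers had 3 higher (Abca1, Abcg1 and Plin2; 2.76% of all genes) and 0 lower (3.31%). C1q only cells had 1 higher (Plin2; 2.64%) and 2 lower (Cd36 and Abca1; 4.05%). Ly6c2 positive cells had 0 higher (3.18%) and 2 lower (Abca1 and Plin2; 2.19%), and other myeloid cells 1 higher (Cd36; 5.5%) and 2 lower (Abca1 and Abcg1; 3.92%). Mrc1 positive cells had 0 in either direction (1.66% higher and 1.92% lower). Pparg, Nr1h3 and the oxidation genes passed this rule in no subset. Pparg had 16.1 CPM and 13.3 CPM in cells with both markers and 22.6 CPM and 24.9 CPM in other myeloid cells, on 4 to 7 UMIs per subset and library. In Ly6c2 positive cells it had 0 UMIs after standard and 3 UMIs (24.9 CPM) after FLASH, so the subsets cannot be ranked for Pparg.

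**Figure D3:**
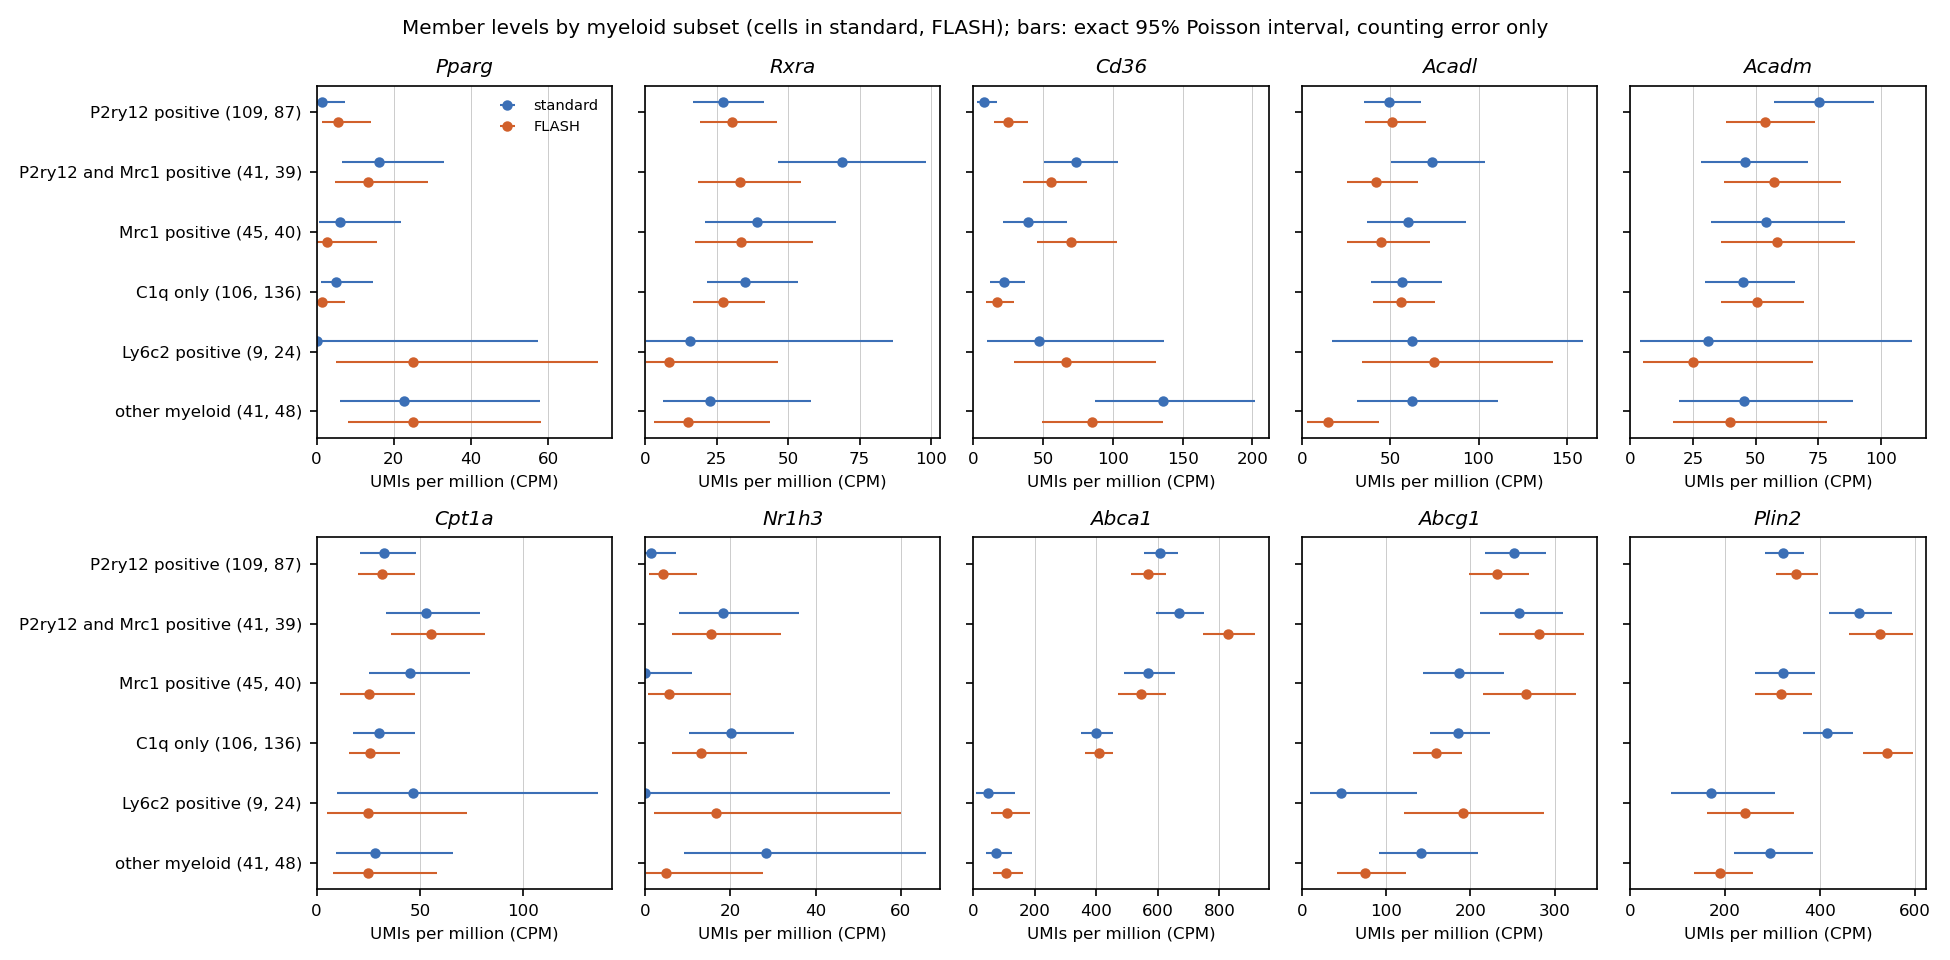
Level of each gene (CPM) in the 6 myeloid subsets of both libraries, with exact Poisson 95% intervals. Abca1 falls from 399 to 827 CPM in the C1q positive subsets to between 46.7 and 108 CPM in the C1q-low ones, while Cd36 is highest in other myeloid cells.

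Endothelial-like cells shared part of the profile. Cpt1a had 117 CPM (71.3 to 180) and 93.3 CPM (56.2 to 146), above the myeloid intervals in both libraries. Acadl had 122 CPM (75.8 to 187) and 172 CPM (120 to 239), also above the myeloid intervals. Abca1 had 227 CPM (162 to 311) and 216 CPM (157 to 290), below the myeloid intervals. These 3 of the 10 genes were at least 2-fold higher than in tumour-lineage cells in both libraries, where the rule called 8.72% of 13211 genes higher and 4.75% lower. The log2 ratios were 6.04 (5.23 to 6.73) and 5.90 (5.07 to 6.61) for Cpt1a, 2.50 (1.77 to 3.09) and 2.87 (2.32 to 3.33) for Acadl and 4.92 (4.39 to 5.39) and 5.00 (4.50 to 5.44) for Abca1. Cd36, which capillary endothelium of other organs is known for, had 0 UMIs in both libraries, where 3 counts would be 17.5 CPM and 14.7 CPM. All 8 endothelial markers were detected, at a summed 9345 CPM and 12472 CPM.

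In the remaining classes the dehydrogenase genes were the most widely spread of the set. Acadl reached 85.3 CPM and 48.3 CPM in oligodendrocyte-like cells (79 and 89 cells), 54.1 CPM and 44.9 CPM in oligodendrocyte precursor-like cells (57 and 112) and 115 CPM and 82.4 CPM in T cell-like cells (20 and 26), so myeloid cells did not stand apart from these. The few astrocyte-like (6 and 17) and fibroblast-like cells (5 and 7) had 299 CPM and 103 CPM, and 203 CPM and 154 CPM, of Acadl. They also had Abca1, at 199 CPM and 258 CPM in astrocyte-like and 295 CPM and 116 CPM in fibroblast-like cells. Acadm ran from 18.3 to 63.8 CPM across tumour-lineage, myeloid, endothelial-, oligodendrocyte-, precursor-, T cell- and erythroid-like cells. Plin2 was lower in oligodendrocyte-like cells (8.53 CPM and 5.17 CPM) than in tumour-lineage cells. Abcg1 had 76.2 CPM and 93.6 CPM in neutrophil-like cells and 17.2 CPM and 38.9 CPM in precursor-like cells, each below the myeloid level.

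Tumour-lineage cells did not carry the genes evenly. From progenitor-like to differentiating-like cells Rxra went from 10.4 CPM to 2.65 CPM (standard) and from 11.9 CPM to 1.59 CPM (FLASH), log2 ratios of -1.95 (-2.57 to -1.42) and -2.87 (-3.68 to -2.23). Acadl went from 25.4 CPM to 12.7 CPM and from 26.4 CPM to 15 CPM, log2 ratios of -0.99 (-1.27 to -0.74) and -0.81 (-1.06 to -0.58). Abcg1 went the opposite way, from 1.04 CPM in both libraries to 5.02 CPM and 6.71 CPM, log2 ratios of 2.26 (1.63 to 2.93) and 2.69 (2.13 to 3.28). For Abca1 the ratios were 0.44 (0.08 to 0.77) and 0.79 (0.46 to 1.12). A differentiating-like cluster of low depth (median 1793 UMIs), led by Meg3, had 35.8 CPM and 22.0 CPM of Abca1. Without that cluster, an alternative added after seeing the data, the ratios were 0.07 (-0.33 to 0.45) and 0.71 (0.36 to 1.05). The standard interval then included 0 and the FLASH interval did not. Abca1 also ran high in the progenitor-like cluster led by Hes1 (16.7 CPM and 14.6 CPM), above the differentiating-like clusters led by Chrna3 (8.45 CPM and 11.9 CPM) and Neurod1 (5.89 CPM and 6.94 CPM). Rxra in the low-depth cluster had 16.1 CPM and 8.01 CPM, and without it the Rxra ratios were -2.67 and -3.16. The Abcg1 ratios were then 2.32 and 2.71 and those of Acadl -0.97 and -0.78. The C1q genes stood at 0.0745% and 0.0765% of their myeloid level in progenitor-like and 0.108% and 0.112% in differentiating-like cells. For Abcg1 these values were 0.487% and 0.495%, and 2.35% and 3.20%. The part of free RNA or of doublets in these levels was not tested. Acadm, Plin2, Cpt1a and Nr1h3 had an interval that included 0 in at least 1 library when all clusters were counted. Without the low-depth cluster the Plin2 intervals excluded 0, at 0.35 (0.16 to 0.54) and 0.20 (0.0070 to 0.39). Within the lineage Acadl was highest in the cluster rich in histone transcripts, with 38.5 CPM and 39.5 CPM.

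Between the treatments few differences were large enough to call. In myeloid cells none of the 10 genes was 1.5-fold higher or lower after FLASH with an interval that excluded 0, where 1.92% of 10322 genes were called higher and 1.84% lower. Abca1 had a log2 ratio of FLASH over standard of -0.00036 (-0.11 to 0.11), a fold interval of 0.924 to 1.08 for counting error alone. Plin2 had 877 and 1089 UMIs and a log2 ratio of 0.17 (0.04 to 0.30), a fold of 1.13 (1.03 to 1.23). By subset, C1q only cells had the clearest Plin2 excess, 248 and 417 UMIs or 0.39 (0.16 to 0.62), below the 1.5-fold limit. In the same cells H2-Ab1 went from 51.8 CPM to 207 CPM and Ccr2 from 38.4 CPM to 107 CPM, and their part in the Plin2 ratio was not tested. Other myeloid cells went the opposite way, with 52 and 38 Plin2 UMIs or -0.63 (-1.28 to -0.0032), called lower (5.02% of 2788 genes were called higher and 4.23% lower there). In C1q only and in Mrc1 positive cells none of the genes was called (all genes in C1q only cells 2.18% higher and 4.6% lower, in Mrc1 positive cells 4.78% and 2%). The excess over all myeloid cells was 0.03 (-0.24 to 0.30) when each cell was thinned to 2000 UMIs. For Abcg1 the ratio was -0.02 (-0.20 to 0.15), for Cd36 0.08 (-0.34 to 0.50) and for Cpt1a -0.21 (-0.65 to 0.24). Pparg and Nr1h3, with 17 to 26 UMIs per library, had 0.09 (-0.91 to 1.12) and -0.20 (-1.05 to 0.65). Counting error alone leaves a fold from 0.531 to 2.17 for Pparg and from 0.483 to 1.57 for Nr1h3. The median over the 10 genes was -0.067 and over all genes 0.0019.

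Among the 10 genes Rxra had the ratio farthest from 0 in myeloid cells, -0.42 (-0.89 to 0.036), a fold interval of 0.540 to 1.03. In the macrophage-like cluster alone it had 70 UMIs and 51 UMIs (49.0 CPM and 29.0 CPM), or -0.75 (-1.31 to -0.21). It was the only 1 of the 10 genes called in that cluster, where 2.07% of 9101 genes were called higher and 2.03% lower. In the microglia-like cluster its ratio was 0.33 (-0.60 to 1.27), and 0 of the genes were called (3.65% of all genes higher and 2.49% lower). Cells positive for P2ry12 and Mrc1 had 30 Rxra UMIs (68.9 CPM) in the standard and 15 (33.2 CPM) in the FLASH library, giving -1.03 (-2.05 to -0.12), where 2.89% of 5157 genes were called higher and 3.2% lower. In tumour-lineage cells Rxra had the opposite sign, 0.19 (-0.0047 to 0.39), and 0.58 (0.20 to 0.98) at 2000 UMIs per cell. Progenitor-like cells had 0.20 (0.00035 to 0.41) on 339 and 472 UMIs. Differentiating-like cells had -0.72 (-1.67 to 0.16) on 29 and 18 UMIs. Progenitor-like cells, where Rxra was higher, made up 4237 of 6461 and 5640 of 8076 tumour-lineage cells. The part of this share in the Rxra ratio was not tested.

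In tumour-lineage cells none of the 8 genes with enough UMIs was called, where 0.725% of 14354 genes were called higher and 1.16% lower. Plin2 had -0.10 (-0.22 to 0.02), Abca1 -0.15 (-0.37 to 0.07) and Acadl 0.11 (-0.02 to 0.23). In smaller groups of cells some genes were called, in either direction. Cd36 in P2ry12 positive cells had 6 UMIs in the standard and 18 in the FLASH library, or 1.60 (0.28 to 3.30), where 4.07% of 6834 genes were called higher and 2.82% lower, but 5 cells held 94.4% of the FLASH UMIs. In these cells H2-Ab1 also went from 27.3 CPM to 120 CPM, Pf4, a macrophage gene, from 48.0 CPM to 99.4 CPM and Ccr2 from 14.3 CPM to 35.9 CPM, and their part was not tested. The microglia-like cluster had 5 and 4 Cd36 UMIs. Abcg1 in endothelial-like cells had 0 UMIs after standard, where 3 counts would be 17.5 CPM, and 9 after FLASH (44.2 CPM), where 3.87% of 3407 genes were called higher and 5.52% lower. In the same endothelial-like cells the macrophage markers summed to 29.2 CPM (3 of 9 detected) after standard and 599 CPM (9 of 9) after FLASH, and their part in the Abcg1 count was not tested. Abcg1 in Ly6c2 positive cells, with 3 and 23 UMIs, had a ratio of 1.84 (0.31 to 4.41), where 6.68% of 1422 genes were called higher and 5.91% lower. It came with neutrophil markers at a summed 15.6 CPM and 890 CPM, whose part was not tested either. Lower calls were found in oligodendrocyte-like cells for Acadl (50 and 28 UMIs; -0.81, -1.54 to -0.13) and Abca1 (21 and 8 UMIs; -1.32, -2.76 to -0.14), where 3.5% of 6771 genes were called higher and 3.44% lower. The other lower calls rest on fewer than 20 UMIs in all, as does the endothelial Abcg1 call, and so on genes outside the background counts: Acadl in other myeloid cells (11 and 3 UMIs), Acadl and Abcg1 in astrocyte-like cells (9 and 10, 4 and 1) and Abca1 in T cell-like cells (5 and 0).

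**Figure D4:**
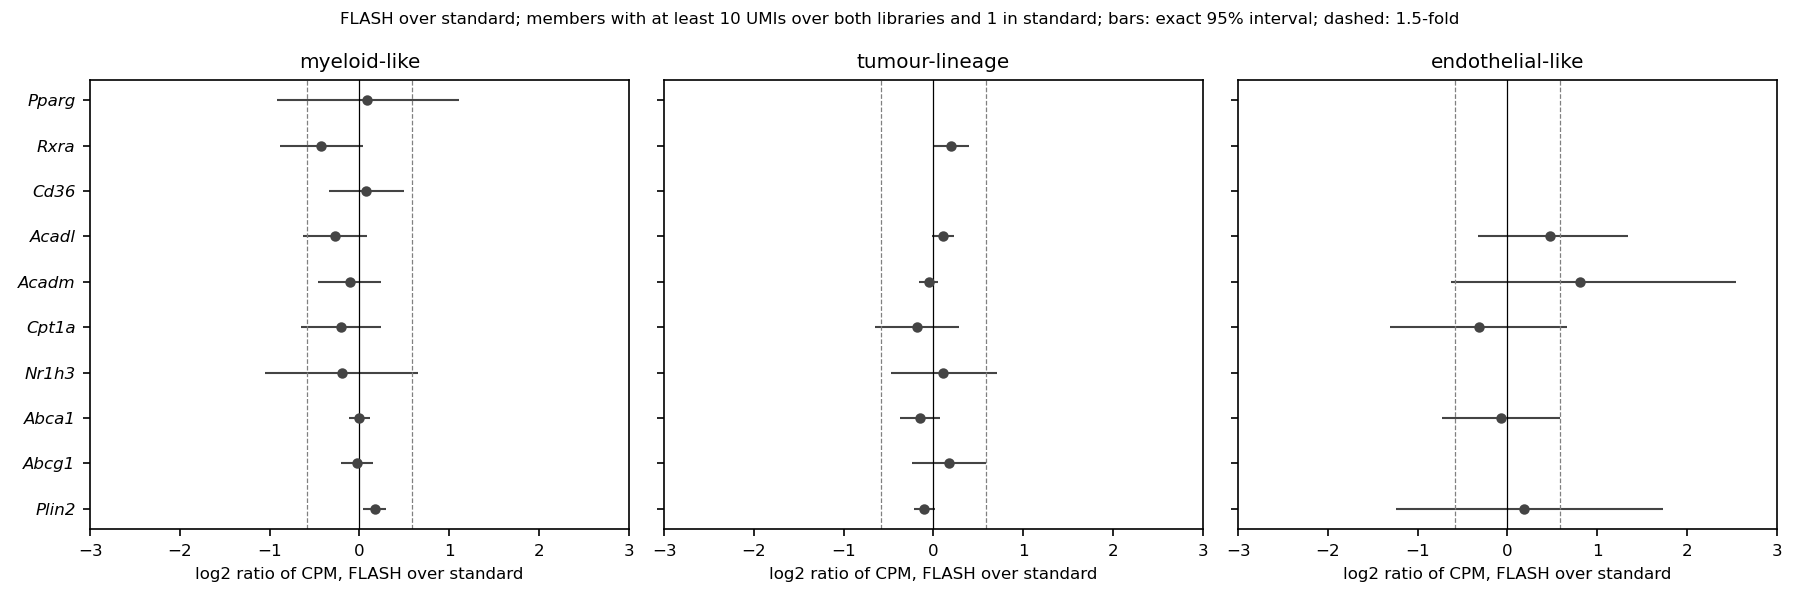
Log2 ratio of FLASH over standard in myeloid, tumour-lineage and endothelial-like cells for genes with 10 or more UMIs in all, 1 or more of them in the standard library, with exact conditional 95% intervals; dashed lines mark 1.5-fold. In myeloid cells every interval but that of Plin2 (0.04 to 0.30) includes 0, and Plin2 stays inside the dashed lines.

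A further 80 genes of the pathway were counted in lists. Of the LXR targets and efflux genes 7 of 10 were at least 2-fold higher in myeloid than in tumour-lineage cells and 1 lower (background 14.9% and 28.2% as above), with median log2 ratios of 2.79 and 2.76. The apolipoproteins led: Apoe, the lipid acceptor of macrophages, had 9.49 and 9.46 and Apoc1 9.35 and 9.68, and Mylip, a ubiquitin ligase, had 6.15 and 6.07. Of the uptake genes 8 of 16 were higher and 2 lower (medians 1.31 and 1.55). They included the scavenger receptor Msr1 (9.36 and 9.67) and the fatty acid binding proteins Fabp4 (9.98 and 8.67, with 27 and 31 myeloid UMIs and 0 and 1 in tumour-lineage cells) and Fabp3 (4.39 and 4.63). Of the droplet genes 4 of 9 measured were higher and 0 lower (1.78 and 0.90), led by the coat protein Plin3 (5.34 and 5.39), lysosomal acid lipase Lipa (4.29 and 4.35) and the cholesterol esterifier Soat1 (3.73 and 3.74).

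Of the oxidation genes 3 of 21 measured were higher and 2 lower, beside 14.9% and 28.2% of all genes. Their medians were 0.42 (standard) and 0.38 (FLASH), above the median of all genes (-0.66). By the smaller ratio of both libraries the genes farthest from 0 were Cpt1c, the neuronal CPT1 (-2.01 and -1.90), the thiolase Acaa2 (1.89 and 2.12) and the short-chain dehydrogenase Acads (1.60 and 1.66). Of the nuclear receptors and co-regulators 2 of 9 were higher, the coactivator Ppargc1b (2.79 and 3.18) and Ppard (1.30 and 1.48), and 2 were lower, with medians of -0.65 and -0.91. Of other PPAR targets 2 of 7 were higher, the mitochondrial carrier Ucp2 (7.96 and 7.85) and the lipase inhibitor Angptl4 (6.1 and 4.65), and 0 were lower, with medians of -0.24 and -0.26. The fat cell hormone Adipoq, a defining PPAR gamma target of adipocytes, had 0 myeloid UMIs. In endothelial-like cells 4 of 21 oxidation genes, 4 of 10 LXR and efflux genes and 3 of 14 uptake genes were higher than in tumour-lineage cells (background 8.72%). So were 3 of 9 droplet genes, 2 of 7 PPAR targets and 1 of 9 nuclear receptors and co-regulators, and 1 gene was lower in each of the LXR, uptake and nuclear receptor lists (background 4.75%).

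Between FLASH and standard no gene of any of these lists was called in myeloid cells (1.92% and 1.84% of all genes). Among the largest ratios there were -0.72 for the electron carrier dehydrogenase Etfdh and -0.71 for the triglyceride synthase Dgat2, and on the higher side 0.54 for Ppargc1b and 0.50 for the transporter Slc27a1. In tumour-lineage cells 1 of 21 oxidation genes was lower, the carnitine-acylcarnitine carrier Slc25a20 with 563 and 399 UMIs and a log2 ratio of -0.72 (-0.91 to -0.53). Of 6 PPAR targets measured there 2 were higher, the hormone Fgf21 (42 and 89 UMIs; 0.85, 0.32 to 1.43) and Adipoq (21 and 43 UMIs; 0.80, 0.03 to 1.64), and 1 was lower, the pyruvate dehydrogenase kinase Pdk4 (-0.88, -1.78 to -0.05). The backgrounds for these counts are 0.725% and 1.16%.

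**Figure D5:**
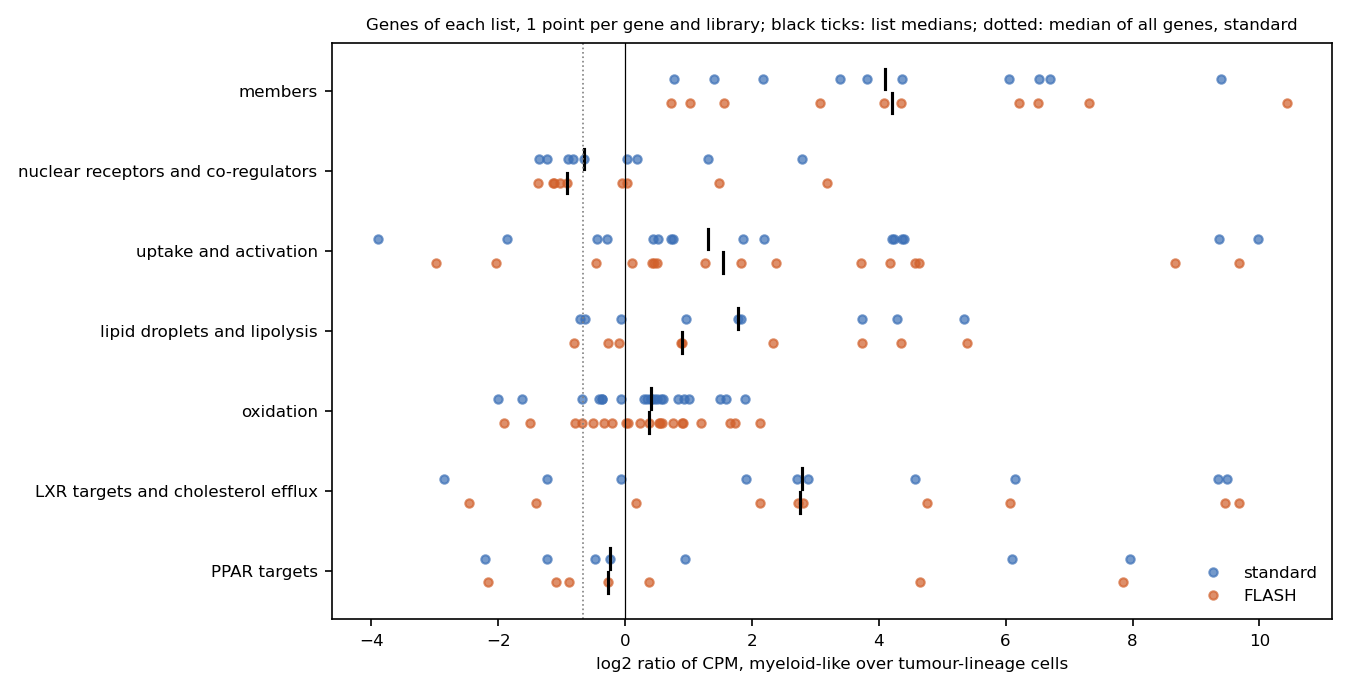
Log2 ratio of myeloid over tumour-lineage cells for the genes of 6 pathway lists and the 10 genes, 1 point per gene and library; ticks are list medians and the dotted line is the median of all genes after standard (-0.66). The 10 genes have the highest median (4.09 after standard), followed by the LXR and efflux list (2.79), and the oxidation list lies near 0 (0.42).

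Genes with the most similar pattern were sought by Pearson's r of log2(CPM + 10) over 32 sums of cell class and library, which share their library and depth, so r is a description. Cd36 was most like Ms4a6c (0.95) and Clec4a3 (0.94), Abca1 most like Apoe (0.93), Plin2 most like Ctsz (0.93) and Abcg1 most like Unc93b1 (0.92). Pparg was most like Runx3 (0.88) and Arg1 (0.86), Cpt1a like Elk3 (0.85) and Rxra like Hacd4 (0.83). The highest r was lower for the remaining genes: 0.79 for Acadl with Rest, 0.77 for Acadm with Os9 and 0.69 for Nr1h3 with Ltbr. Among the 10 genes, r was 0.85 for Abcg1 with Plin2, 0.82 for Rxra with Plin2, 0.77 for Abca1 with Abcg1 and 0.68 for Pparg with Cd36.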

How the data were processed

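Single-cell RNA of 2 libraries, 1 per treatment, was deposited as raw UMI counts per gene and barcode, which the authors made on mm10 (per the submitters' processing notes) in Cell Ranger 6.1.2 (per the file headers). The counts were checked to be whole numbers, and no barcode had fewer than 500 UMIs. The sources used here do not name the annotation release, and coordinates were taken from GENCODE M21 by gene ID. Barcodes were kept with at least 500 genes and at most 10% mitochondrial UMIs, giving 50212938 UMIs (standard) and 58357503 (FLASH). Doublets were kept, because the rule set beforehand for these genes has no doublet filter. The automatic cutoff of Scrublet marked 0 barcodes in either library, and an alternative removed the 573 (6.77%) and 860 (8.30%) of highest score.

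Cells were clustered with scanpy 1.11.5 and leidenalg 0.10.2 (2000 variable genes, leaving out the 10 genes, the 80 pathway genes and sex-linked, mitochondrial and ribosomal ones; 30 principal components, 15 neighbours, resolution 1). A cluster took a name from a marker list with a mean log2 ratio of at least 1.5 and at least 3 markers at 1 or more, after adding 20 CPM. Low-depth clusters of 1398 and 1545 cells stayed unnamed. UMIs were summed per class and library and given as CPM with exact Poisson intervals, and shares of cells with Clopper-Pearson intervals. Log2 ratios had 0.5 count added and an exact conditional binomial interval. A class ratio was called at 2-fold in both libraries and a treatment ratio at 1.5-fold, each with an interval that excluded 0. For class ratios the interval was required after seeing the data, because genes with 0 UMIs otherwise passed. Genes with at least 20 UMIs were measured. Cells are not replicates, so no p-value is given.

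The genes and lists were chosen with earlier results of these data known. Named are the 10 genes, the 3 genes per list with the largest myeloid over tumour-lineage ratio, and list genes called between treatments. Rxrb and Nr1h2 are given besides, to be set beside Rxra and Nr1h3. Of the genes with the 2 largest treatment ratios per list, which the rule also takes, those without a call are given only where largest. Some genes that the rule takes are not reported here. Naming cutoffs were set after seeing the data. Promoters were searched with Python 3.11.15 in the RefSeq table, and figures were drawn with matplotlib 3.10.9.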

Additional observations from a re-analysis of the deposited data

Results flagged for a closer look

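The barcodes that the filters left out, 4406 after standard and 3903 after FLASH, held 5319264 and 4821397 UMIs and entered no comparison. In them 7 of the 10 genes stood above the level of 3 counts (0.564 CPM and 0.622 CPM) in both libraries. The level after standard and after FLASH was 17.3 CPM and 27.4 CPM for Abca1, 3.20 CPM and 6.43 CPM for Abcg1, and 16.4 CPM and 19.9 CPM for Plin2. For the oxidation genes it was 12.2 CPM and 14.7 CPM (Acadl), 17.1 CPM and 18.0 CPM (Acadm) and 3.20 CPM and 3.11 CPM (Cpt1a). Rxra had 7.90 CPM and 8.50 CPM. Pparg had 1 UMI and 0 UMIs there.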

How the results depend on the processing

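Of 1112 alternative values, 1060 stayed within the spread or on the same side, 51 moved and 1 reversed. No alternative that filtered barcodes harder, removed the barcodes of highest doublet score, changed the CPM denominator or raised the clustering resolution moved any value. The count of genes higher in myeloid cells was 9 except at 2000 UMIs per cell and without the 5 cells of most UMIs (8 each) and in the microglia-like cluster alone (6). Each cluster by itself was an alternative chosen after seeing the data. The value that reversed was the standard log2 ratio of Nr1h3 over tumour-lineage cells in the microglia-like cluster, -1.02 on 0 UMIs. Between treatments, the count of called genes in myeloid cells was 1 (Rxra) in the macrophage-like cluster, and the share of all genes called was 6.13% in the microglia-like cluster against 3.76%. The median of the 10 genes was -0.18 with classes set from marker UMIs alone, against -0.067. Requiring 100 UMIs lowered the share of genes called in tumour-lineage cells from 1.89% to 0.902%. The causes were not tested. No paired analysis was possible because each treatment has 1 library. Depth limits Pparg and Nr1h3 throughout, all genes in Ly6c2 positive cells, and endothelial-like cells.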
